A study of Mus musculus with 110 samples.

Results

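The 10 genes described here encode proteins that carry out and control the breakdown of stored triglyceride: the lipases Pnpla2, Pnpla3, Lipe and Mgll, the coactivator Abhd5, the inhibitor G0s2, and the perilipins Plin1, Plin2, Plin4 and Plin5. They were chosen by name, and all 10 were found among the 56884 genes of the count tables. Their RNA was measured by bulk mRNA sequencing in liver, interscapular brown adipose tissue (iBAT), inguinal white adipose tissue (iWAT) and epididymal white adipose tissue (eWAT) of male C57BL/6N mice aged 16 weeks and housed singly. Wild-type mice ate a control diet with 0.86% methionine (Ctrl) or a methionine-restricted diet with 0.12% methionine (MetR) for 7 days, and the cysteine content of both diets was 0%. They were kept at 22 °C (room temperature, RT) for the 7 days, or then spent a further 24 h at 4 °C (cold exposure, CE). Cold groups thus also differed from RT groups by that further day, which cannot be told apart from cold. The groups were Ctrl_RT, Ctrl_CE, MetR_RT and MetR_CE. In that order, the libraries used were 7, 7, 7 and 7 of liver, 6, 6, 7 and 7 of iBAT, 7, 7, 7 and 6 of iWAT and 4, 7, 6 and 7 of eWAT. Each library came from a single mouse, so the errors given below within a tissue measure the spread between mice. The tissues were taken from the same 28 mice, so libraries of different tissues are not all from separate mice.

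Triglyceride in a lipid droplet is hydrolysed in steps. Adipose triglyceride lipase, encoded by Pnpla2, removes the first fatty acid, hormone-sensitive lipase, encoded by Lipe, removes the next, and monoacylglycerol lipase, encoded by Mgll, frees the last from glycerol. Abhd5 (also called CGI-58) activates adipose triglyceride lipase, and G0s2 binds and inhibits it. Perilipins coat the droplet and govern which of these proteins reach its surface: Plin1 is the perilipin of adipocytes, Plin2 is found in most tissues and follows droplet content, Plin4 belongs to white adipocytes, and Plin5 belongs to tissues that burn fatty acids, where it ties droplets to mitochondria. Pnpla3 is a relative of Pnpla2 that is known to respond strongly to feeding and insulin. Cold calls on these genes because fatty acids freed in adipocytes fuel heat production in brown fat.

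The promoters of Plin2, Pnpla3, Plin4 and Plin5 are shown as examples of members whose responses to cold differed between tissues, as described below. The cold responses of Pnpla2 and Mgll also differed between tissues, and their promoters are not shown. Each is the strand of the gene, from 250 bases before the start of the transcript to 50 bases after it, as RefSeq gives it for GRCm38.p6. Capitals mark matches on either strand to the motifs searched, which were the nuclear receptor core site AGGTCA (read as TGACCT on the other strand), the cAMP response element TGACGTCA, the ATF4 with C/EBP site TGATGNAA, the forkhead site GTAAACA and the E-box CACGTG. None of these 5 motifs lies inside another.
Plin5, chr17:56117499-56117798, minus strand: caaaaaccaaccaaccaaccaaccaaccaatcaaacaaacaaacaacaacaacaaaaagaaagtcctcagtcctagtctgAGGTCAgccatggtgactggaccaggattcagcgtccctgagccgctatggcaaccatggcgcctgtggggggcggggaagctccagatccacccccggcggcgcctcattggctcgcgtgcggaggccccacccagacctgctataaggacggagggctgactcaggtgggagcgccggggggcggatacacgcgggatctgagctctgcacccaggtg
Plin4, chr17:56109733-56110032, minus strand: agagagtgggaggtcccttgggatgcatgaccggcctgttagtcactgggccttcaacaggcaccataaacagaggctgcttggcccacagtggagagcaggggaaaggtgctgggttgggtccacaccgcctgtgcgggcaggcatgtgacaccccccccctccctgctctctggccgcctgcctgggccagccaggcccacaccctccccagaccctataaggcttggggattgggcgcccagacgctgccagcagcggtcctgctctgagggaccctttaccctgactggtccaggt
Plin2, chr4:86670010-86670309, minus strand: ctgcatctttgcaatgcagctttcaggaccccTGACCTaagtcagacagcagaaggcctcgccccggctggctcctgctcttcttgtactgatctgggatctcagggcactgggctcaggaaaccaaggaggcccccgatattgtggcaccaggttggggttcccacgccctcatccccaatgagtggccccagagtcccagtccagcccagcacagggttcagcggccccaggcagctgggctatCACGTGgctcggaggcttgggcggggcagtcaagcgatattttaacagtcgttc
Pnpla3, chr15:84167566-84167865, plus strand: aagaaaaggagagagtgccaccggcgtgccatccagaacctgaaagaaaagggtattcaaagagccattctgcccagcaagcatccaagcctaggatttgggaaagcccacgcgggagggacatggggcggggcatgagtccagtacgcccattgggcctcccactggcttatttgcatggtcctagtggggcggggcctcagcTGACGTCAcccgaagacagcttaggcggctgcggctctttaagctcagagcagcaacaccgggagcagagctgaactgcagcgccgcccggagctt

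The Plin5 sequence held a nuclear receptor core site 170 bases before the start, and a further Plin5 start had one 14 bases after it. Plin2 held a core site 218 bases before the start and an E-box 4 bases before it, and Pnpla3 held a cAMP response element 46 bases before the start. The Plin4 sequence held none of the 5, nor did those of G0s2, Plin1 and Pnpla2, which are not shown. Of the other members not shown, Mgll held a forkhead site at -241 and an E-box at -44 from the start. Abhd5 held a core site at -69, Lipe an E-box at -155 and another Lipe start a forkhead site at -119. Of 32851 mouse promoters of this length, 16.3% held the core site, 7.15% the E-box, 3.97% the ATF4 site, 3.65% the forkhead site and 1.79% the cAMP response element, so a core site in particular is common. Plin4 and Plin5 are neighbours on the minus strand of chromosome 17, with 1798 bases between them (Plin4 at chr17:56100591-56109803, Plin5 at chr17:56111601-56117596, GRCm38), and were counted as separate genes. G0s2 (chr1:193272161-193273217) overlaps Lamb3, and Plin4 overlaps Hdgfl2, both on the opposite strand. The libraries did not mark strand, so reads from such a pair cannot be told apart where exons overlap.

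Total counts ran from 6987895 to 33444374 per liver library, 12672686 to 31232349 in iBAT, 16607493 to 33141066 in iWAT and 22021114 to 33372110 in eWAT. All 8 adipocyte markers were at a mean of at least 1 CPM in each fat depot, and all 8 hepatocyte markers were in liver. This floor does not tell the fat depots apart, so it does not test their labels. Some libraries stood apart in markers of neighbouring tissue. Summed skeletal muscle markers reached 22158 CPM in 1 iWAT library and 1763 CPM in iBAT, and summed epididymal markers reached 1304 CPM in an eWAT library that was used and 8402 CPM in one that was not. The study left out 1 iBAT and 4 eWAT libraries without naming them, and the libraries that best matched its mean counts were left out here. In iBAT, 3 libraries carry a treatment tag that names another group than their title.

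In Ctrl_RT the 3 fat depots held all 10 RNAs, and the liver libraries overlapped at least 1 fat depot for Plin2, Plin5 and G0s2. Levels between genes are compared per kilobase of exon, as mean normalized CPM per kb in Ctrl_RT, and CPM were normalized within each tissue. Pnpla2 led every fat depot, at 1144 in eWAT, 1063 in iBAT and 733 in iWAT, against 23.5 in liver. Plin1 came next in both white depots, at 714 in eWAT and 418 in iWAT. In iBAT Plin2 came next, at 425. In liver Plin2 led with 121, followed by G0s2 with 106 and Mgll with 51.98, while Lipe stood at 3.11 and Pnpla3 at 1.65. Abhd5, the coactivator, was the lowest member per kb in iBAT and the next lowest after Plin5 in both white depots.

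**Figure D1:**
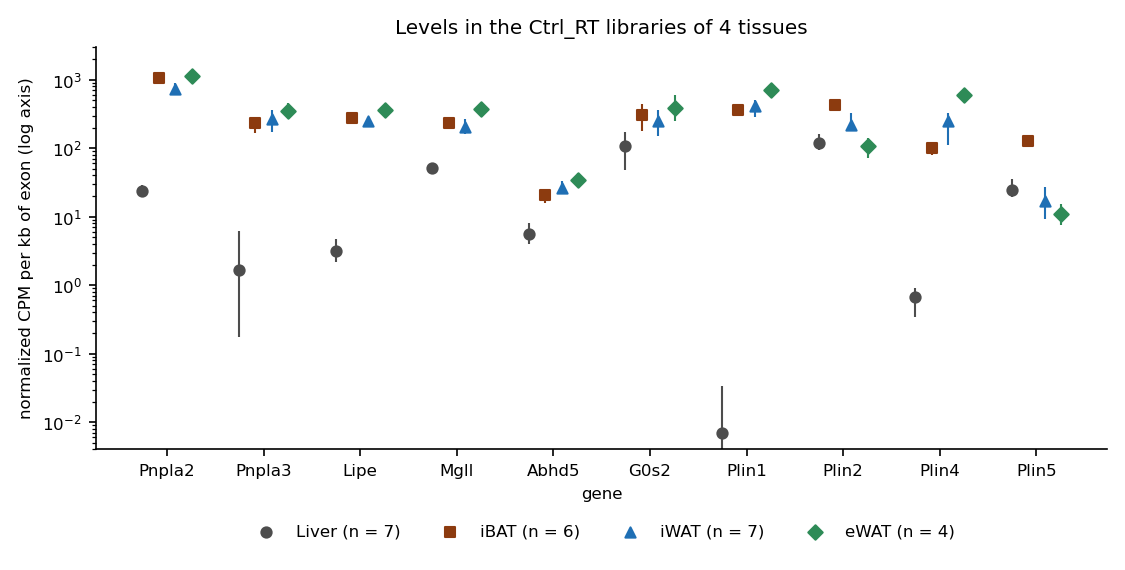
Normalized CPM per kb of exon (log axis) of each member in the Ctrl_RT libraries, with a point at the mean and a line from the lowest to the highest library, coloured by tissue. The fat depots lie close together for the lipases, liver lies far below them for Plin1, Plin4, Lipe and Pnpla3, and Plin5 is highest in iBAT.

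Within a gene, the order of the tissues set perilipins apart from one another. Plin5 was highest in iBAT at 239 to 290.5 CPM (median 270.1), followed by liver at 40.5 to 75.1 CPM (median 47.1), iWAT at 19.6 to 56.0 CPM (median 34.4) and eWAT, where the 4 libraries stood at 22.2, 21.7, 15.6 and 32.3 CPM. No iBAT library overlapped liver, whereas liver overlapped iWAT and iWAT overlapped eWAT. Plin4 ran the other way, with eWAT at 3310, 3429, 2989 and 4245 CPM, above iWAT at 649 to 1897 CPM (median 1579) and iBAT at 459 to 666 CPM (median 589). The lowest eWAT library lay above the highest of iWAT, while iWAT and iBAT overlapped. Plin2 was highest in iBAT at 1315 to 1754 CPM (median 1468), then iWAT at 624 to 1137 CPM (median 690.1), and liver and eWAT overlapped below them. Plin1 was close to absent from liver, where its counts ran from 0 to 18 per library over all groups, so no fold change of Plin1 in liver is interpreted.

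In a single edgeR fit over the 4 tissues, iBAT and iWAT of the Ctrl_RT mice differed in 4 of the 10 members, beside 33.3% of all genes. This fit took the libraries of 1 mouse as independent of each other. In limma with the mouse as a block, the consensus correlation of libraries of 1 mouse was 0.0328. A call here and below means a Benjamini-Hochberg adjusted p below 0.05 over all genes tested together with a difference of at least 1.5-fold. On the log2 scale, Plin5 was 3.29 ± 0.22 (SE) higher in iBAT (adjusted p = 1.1e-24), Plin2 was 1.33 ± 0.18 (SE) higher (8.8e-10) and Pnpla2 was 0.89 ± 0.11 (SE) higher (6.5e-11). Plin4 differed by -0.97 ± 0.22 (SE), lower in iBAT (adjusted p = 0.00010). Mgll and Lipe passed the p threshold with differences of 0.55 and 0.51, below 1.5-fold.

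Cold and methionine restriction moved different members in different tissues. In iWAT the calls against Ctrl_RT were all upward and led by Plin5 and Plin2. In iBAT cold raised Plin2 and lowered Plin4 and Pnpla3. In liver Abhd5 and Lipe were called lower in MetR_RT, and Pnpla3 was called higher in Ctrl_CE, with overlapping ranges. In eWAT 4 members had an interaction of cold and diet, none of which was called with all deposited libraries. All comparisons with Ctrl_RT in a tissue share the same Ctrl_RT libraries, so their values are given side by side and are not independent of each other.

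**Figure D2:**
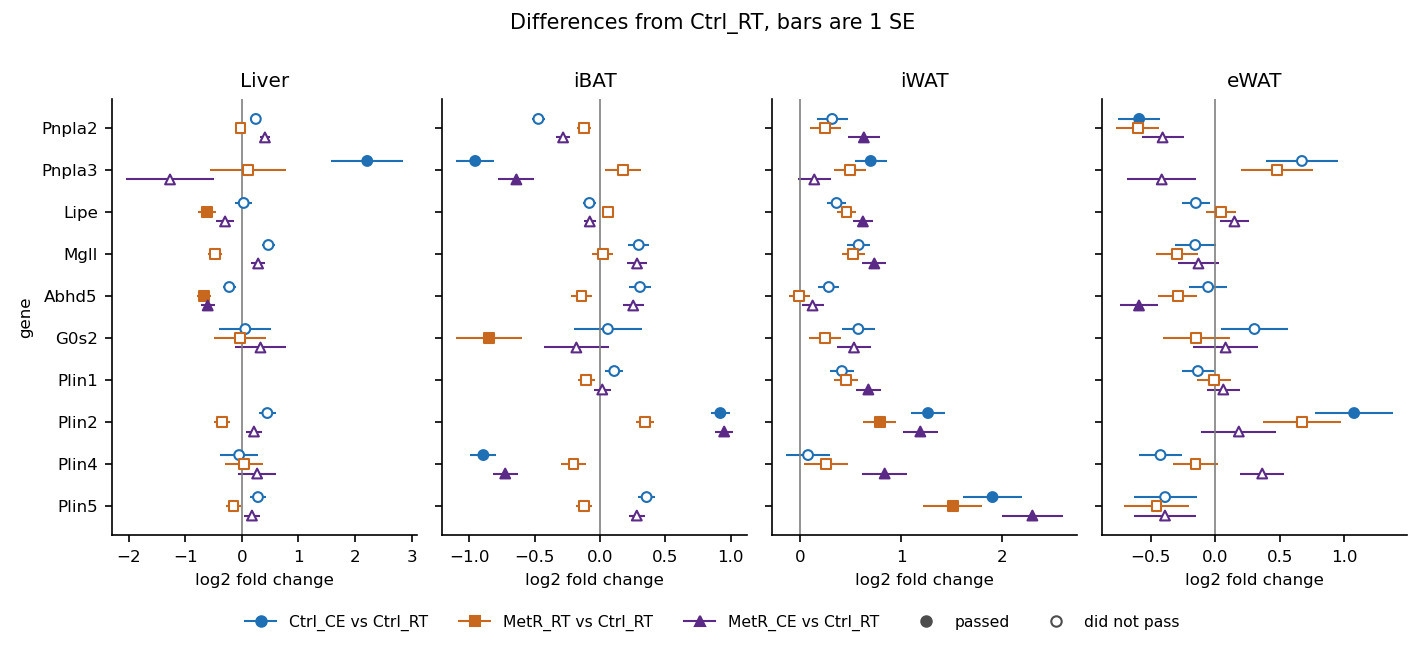
log2 fold change of each member against Ctrl_RT in the 4 tissues from the edgeR fits, with bars of 1 SE, for Ctrl_CE, MetR_RT and MetR_CE. Filled points passed both thresholds and open points did not, each panel has its own horizontal range, and Plin1 is not drawn in liver, where it was close to absent.

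In iWAT, 3 of 10 members were called in Ctrl_CE (15.9% of all genes), 2 in MetR_RT (11.6%) and 7 in MetR_CE (22.4%), all of them higher. Of all genes, 5.99%, 4.25% and 8.05% were called higher in the same order. The median log2 fold change over the members was 0.50 in Ctrl_CE, 0.46 in MetR_RT and 0.65 in MetR_CE, beside -0.11, -0.03 and -0.08 over all genes tested. No member was called between MetR_CE and MetR_RT (1.88% of all genes) or between MetR_CE and Ctrl_CE (2.27%). In edgeR, 5 and 4 members had an unadjusted p below 0.05 there, and DESeq2 called 0 and 1.

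Plin5, the perilipin that links droplets to mitochondria, had the largest change of all members in iWAT. It lay at 19.6 to 56.0 CPM (median 34.4) in Ctrl_RT, 42.6 to 202 CPM (median 122) in Ctrl_CE, 41.7 to 163 CPM (median 85.2) in MetR_RT and 135 to 216 CPM (median 167) in MetR_CE. The MetR_CE libraries all stood above every Ctrl_RT library, while the ranges of Ctrl_CE and MetR_RT overlapped that of Ctrl_RT at their lower ends. Against Ctrl_RT the log2 fold change was 1.91 ± 0.29 (SE) in Ctrl_CE (adjusted p = 2.6e-05), 1.51 ± 0.29 (SE) in MetR_RT (adjusted p = 0.00045) and 2.30 ± 0.31 (SE) in MetR_CE (adjusted p = 1.6e-06). The interaction, which is the cold effect on the MetR diet minus the cold effect on the Ctrl diet, was -1.12 ± 0.41 (SE) (adjusted p = 0.13) and was not called by edgeR, while DESeq2 called it (-1.16, adjusted p = 0.045). In bulk tissue, a change in the number of cells that hold an RNA and a change in the RNA per cell cannot be told apart, and this holds for every result below.

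Markers of brown adipocytes varied together with Plin5 across the same iWAT libraries. The summed level of 8 markers (Ucp1, Cidea, Cox7a1, Cox8b, Elovl3, Dio2, Cpt1b and Otop1, all 8 at a mean of at least 1 CPM in every group) was 96.5 to 948 CPM (median 351) in Ctrl_RT, 936 to 6215 CPM (median 3633) in Ctrl_CE, 519 to 5481 CPM (median 2057) in MetR_RT and 3500.4 to 8169.9 CPM (median 5399.5) in MetR_CE. Within the groups the log2 levels of Plin5 and of this sum were related over the libraries, with 4 relations computed by exact two-sided permutation tests. In Ctrl_CE Pearson's r was 0.994 and Spearman's rho was 1 (permutation p = 0.000198, the smallest these permutations can give, and 0.000397, adjusted p = 0.000794 and 0.00159, n = 7). In MetR_RT 3 libraries lay apart at the upper end of both measures, so no coefficient is given for that group. In MetR_CE r was 0.915 and rho was 0.886 (exact p = 0.0139 and 0.0333, adjusted p = 0.0145 and 0.0341, n = 6). In Ctrl_RT r was 0.861 and rho was 0.821 (exact p = 0.0145 and 0.0341, adjusted p = 0.0145 and 0.0341, n = 7). Without the 2 libraries farthest from the median of the marker sum, r was 0.976 in Ctrl_CE and 0.907 in MetR_CE, but 0.557 in Ctrl_RT, where the relation rests on those 2 libraries.

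**Figure D3:**
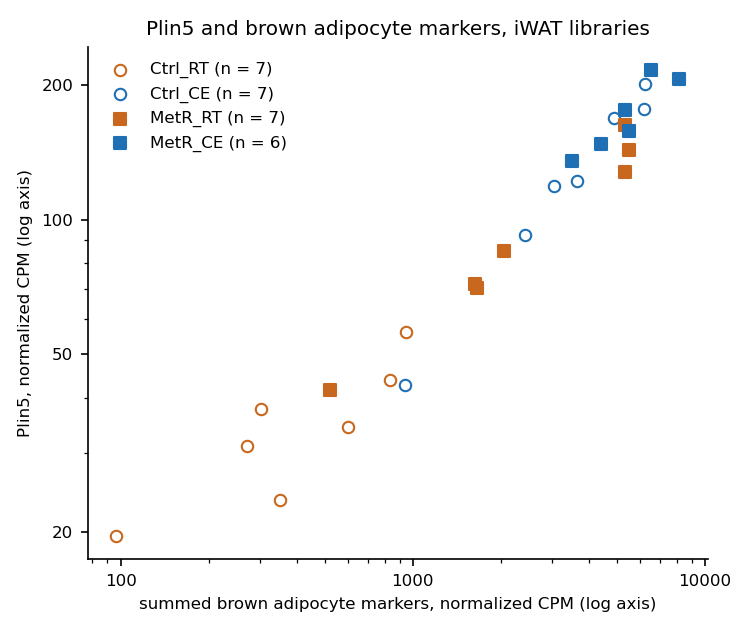
Plin5 against the summed brown adipocyte markers in each iWAT library, both as normalized CPM on log axes, coloured by group. The Ctrl_RT libraries sit toward the lower left and MetR_CE libraries toward the upper right. Ctrl_CE and MetR_RT libraries spread between these groups and overlap both of them.

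Plin2, the perilipin found in most tissues, rose in all 3 treated groups of iWAT. Its level was 624 to 1137 CPM (median 690.1) in Ctrl_RT, 1262 to 2312 CPM (median 1814) in Ctrl_CE, 908 to 1837 CPM (median 1075) in MetR_RT and 1364 to 2089 CPM (median 1719) in MetR_CE. Ctrl_CE and MetR_CE lay wholly above Ctrl_RT, of which the library at 1137 CPM stood apart from the others, and MetR_RT overlapped it through that library. Plin2 differed from Ctrl_RT by 1.27 ± 0.17 (SE) in Ctrl_CE (adjusted p = 4.2e-06), 0.79 ± 0.17 (SE) in MetR_RT (adjusted p = 0.00093) and 1.19 ± 0.17 (SE) in MetR_CE (adjusted p = 4.4e-06). The interaction was -0.87 ± 0.24 (SE) (adjusted p = 0.044), so cold added less on the MetR diet than on the Ctrl diet. That interaction lost its call without the 5 libraries rich in muscle markers (-0.83, adjusted p = 0.11) and without MetR_RT replicate 3 (-0.77, adjusted p = 0.080).

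Both other perilipins of white adipocytes passed both thresholds against Ctrl_RT in iWAT only in MetR_CE. In edgeR neither was called between MetR_CE and Ctrl_CE or MetR_RT. Plin1, the adipocyte perilipin, lay at 1319.5 to 2328 CPM (median 2051) in Ctrl_RT and 2923 to 3279 CPM (median 3139) in MetR_CE, with no overlap, and rose by 0.68 ± 0.12 (SE) (adjusted p = 6.6e-05). Plin4 lay at 649 to 1897 CPM (median 1579) in Ctrl_RT, 1259 to 1866 CPM (median 1520.0) in Ctrl_CE and 1647 to 3088 CPM (median 2703) in MetR_CE. Its Ctrl_RT and MetR_CE ranges overlapped, and the log2 fold change was 0.84 ± 0.23 (SE) in MetR_CE (adjusted p = 0.0041) against 0.08 ± 0.22 (SE) in Ctrl_CE (adjusted p = 0.83). The interaction was -0.19 for Plin1 and 0.50 for Plin4 (adjusted p = 0.61 and 0.42), and neither was called, so a need for both stimuli is not shown. MetR_CE against Ctrl_CE was 0.76 for Plin4 (adjusted p = 0.058) in edgeR, and DESeq2 called it (0.74, adjusted p = 0.018).

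The 3 lipases of the chain were each called in iWAT in MetR_CE. Pnpla2, which starts lipolysis, lay at 1901 to 2662 CPM (median 1996) in Ctrl_RT, 1716 to 4419 CPM (median 2595) in Ctrl_CE, 1837 to 3190.2 CPM (median 2656) in MetR_RT and 3293 to 3547 CPM (median 3443) in MetR_CE. MetR_CE stood clear of Ctrl_RT, Ctrl_CE spread over the range of all other groups, and the log2 fold change was 0.63 ± 0.16 (SE) in MetR_CE (adjusted p = 0.0023). Lipe, the next lipase of the chain, lay at 1262 to 1676 CPM (median 1449.7) in Ctrl_RT, 1504 to 2153 CPM (median 1864) in Ctrl_CE, 1653 to 2412 CPM (median 2155) in MetR_RT and 2066 to 2437 CPM (median 2251) in MetR_CE. MetR_CE did not overlap Ctrl_RT, and the log2 fold change was 0.36 ± 0.10 (SE) in Ctrl_CE, 0.46 ± 0.10 (SE) in MetR_RT and 0.62 ± 0.10 (SE) in MetR_CE (adjusted p = 0.0057, 0.0011 and 2.1e-05), of which the last reached 1.5-fold. Without the 5 libraries rich in muscle markers the MetR_CE values were 0.57 for Pnpla2 and 0.56 for Lipe, just under 1.5-fold. Mgll, which acts last, lay at 811 to 1332 CPM (median 998.03) in Ctrl_RT and 1505 to 1894 CPM (median 1778) in MetR_CE, without overlap, and rose by 0.74 ± 0.12 (SE) (adjusted p = 2.1e-05). In Ctrl_CE Mgll was at 0.58 ± 0.12 (SE) (adjusted p = 0.00039), just below 1.5-fold, and it was called with RLE factors, the replicate block, compared groups only, DESeq2 and without MetR_RT replicate 3 (0.59 to 0.60).

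Of the proteins that act on adipose triglyceride lipase, neither was called in iWAT by the edgeR fit with TMM factors, all iWAT libraries and no replicate block. The inhibitor G0s2 lay at 133 to 311 CPM (median 197) in Ctrl_RT, 289.2 to 375 CPM (median 325) in Ctrl_CE, 158 to 315 CPM (median 259.5) in MetR_RT and 209 to 398 CPM (median 312) in MetR_CE. Ctrl_CE overlapped Ctrl_RT only at its lower end, and the log2 fold change in Ctrl_CE was 0.58 ± 0.16 (SE) (adjusted p = 0.0076), just below 1.5-fold. It passed both thresholds with RLE factors (0.60), the replicate block (0.61), DESeq2 (0.60) and without the 5 libraries rich in muscle markers (0.59). The coactivator Abhd5 lay at 127 to 199 CPM (median 148) in Ctrl_RT and 159 to 191 CPM (median 166) in MetR_CE, and its log2 fold changes were 0.28, -0.01 and 0.12 in Ctrl_CE, MetR_RT and MetR_CE.

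The cold response of Pnpla3 in iWAT differed with the diet. It lay at 268.7 to 557 CPM (median 429.6) in Ctrl_RT, 546 to 801 CPM (median 632) in Ctrl_CE, 459.8 to 941 CPM (median 522) in MetR_RT and 341 to 540.0 CPM (median 471) in MetR_CE. In the Ctrl groups cold libraries stood above most RT libraries, in the MetR groups they were lower with overlap, and every MetR_CE library lay below every Ctrl_CE library. The log2 fold change was 0.70 ± 0.16 (SE) in Ctrl_CE (adjusted p = 0.0014) and 0.49 ± 0.16 (SE) in MetR_RT (adjusted p = 0.025), against 0.14 ± 0.17 (SE) in MetR_CE (adjusted p = 0.55). MetR_CE against MetR_RT was -0.35 ± 0.17 (SE) (adjusted p = 0.22). The interaction was -1.05 ± 0.23 (SE) (adjusted p = 0.017), 1 of 2 members called there beside 1.65% of all genes.

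**Figure D4:**
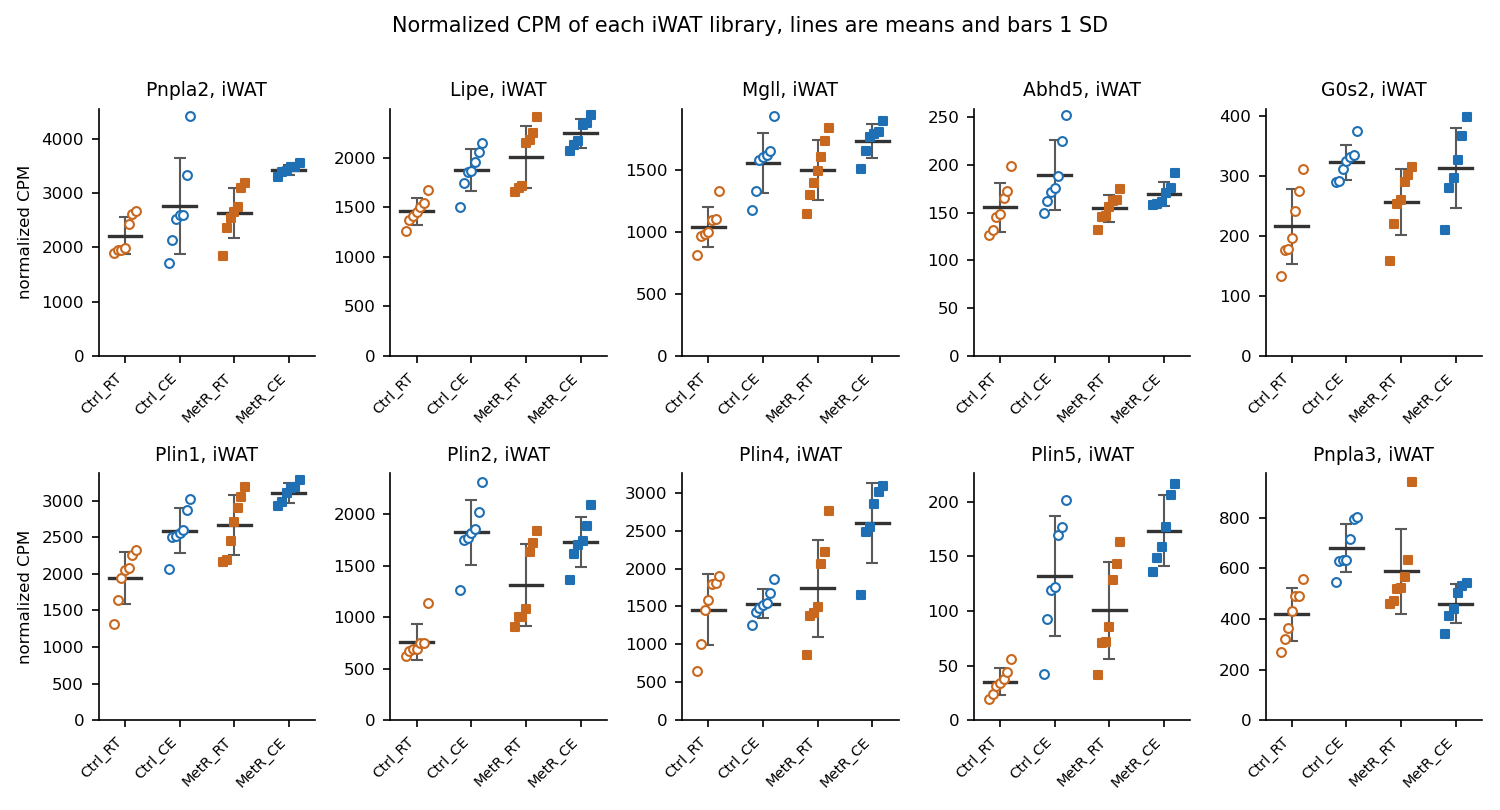
Normalized CPM of each member in every iWAT library, 1 panel per member and 1 point per library in the 4 groups, with the mean as a line and a bar of 1 SD. Plin5 and Plin2 are higher in all treated groups, Pnpla3 peaks in Ctrl_CE, and Pnpla2, Lipe, Mgll and Plin1 are highest in MetR_CE.

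Other cell markers moved with these groups in iWAT. Summed macrophage markers (7 of 8 at 1 CPM or more in each group) were at 1268 to 1995 CPM (median 1374) in Ctrl_RT, 266.7 to 1441 CPM (median 583) in Ctrl_CE, 224 to 948 CPM (median 398) in MetR_RT and 171 to 434 CPM (median 234) in MetR_CE. Summed adipocyte markers (8 of 8) were at 18323 to 24289.8 CPM (median 21199), 18731 to 29281 CPM (median 22415), 20569 to 24954 CPM (median 22877) and 23206 to 26878 CPM (median 23925) in the same order. The part of these markers in the results above was not tested.

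In iBAT, cold called 3 of 10 members on the Ctrl diet (14.7% of all genes), with 1 higher and 2 lower, and the same 3 in MetR_CE against Ctrl_RT (14.7%). The median log2 fold change over the members was 0.08 in Ctrl_CE and -0.03 in MetR_CE, beside -0.08 and -0.10 over all genes. MetR_RT called 1 member (2.5%), MetR_CE against MetR_RT called 3 (8.53%), and MetR_CE against Ctrl_CE called none (1.64%). The interaction called none (0.372%), although Pnpla2 passed its p threshold. In edgeR, 2 and 3 members had an unadjusted p below 0.05 in these last comparisons, and DESeq2 called 0 and 0.

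Plin2 was the member called higher in iBAT in both cold groups against Ctrl_RT. It lay at 1315 to 1754 CPM (median 1468) in Ctrl_RT, 2602 to 3024 CPM (median 2788) in Ctrl_CE, 1621 to 2247 CPM (median 1849) in MetR_RT and 2672 to 3005 CPM (median 2891) in MetR_CE. Every cold library of either diet stood above every RT library of either diet. On the log2 scale Plin2 was 0.92 ± 0.07 (SE) higher in Ctrl_CE (adjusted p = 3.5e-11) and 0.95 ± 0.07 (SE) in MetR_CE (adjusted p = 1.7e-11). In MetR_RT it was 0.34 ± 0.07 (SE) (adjusted p = 0.0020), under 1.5-fold, and MetR_CE exceeded MetR_RT by 0.61 ± 0.07 (SE) (adjusted p = 4.4e-08). With the 3 libraries grouped by their tag that last value was 0.48, and with them left out 0.56, both under 1.5-fold.

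Plin4, the white adipocyte perilipin, fell in iBAT under cold. Its level was 459 to 666 CPM (median 589) in Ctrl_RT, 251.4 to 349 CPM (median 327) in Ctrl_CE, 449 to 544 CPM (median 508) in MetR_RT and 274.6 to 416 CPM (median 352) in MetR_CE. The cold groups lay wholly below the RT group of the same diet and below Ctrl_RT. On the log2 scale Plin4 was at -0.89 ± 0.10 (SE) in Ctrl_CE (adjusted p = 3.1e-08) and -0.73 ± 0.10 (SE) in MetR_CE (adjusted p = 5.4e-07). Its neighbour on the chromosome, Plin5, lay at 239 to 290.5 CPM (median 270.1) in Ctrl_RT and 307 to 398 CPM (median 333) in Ctrl_CE, also without overlap but upward. Plin5 differed by 0.36 ± 0.06 (SE) in Ctrl_CE and 0.28 ± 0.06 (SE) in MetR_CE (adjusted p = 5.7e-05 and 0.00067), under 1.5-fold. Plin1 was at 0.11 in Ctrl_CE and 0.02 in MetR_CE (adjusted p = 0.24 and 0.88).

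Pnpla3 and Pnpla2, the 2 members of one lipase family, were both lower in cold iBAT. Pnpla3 lay at 258.3 to 429 CPM (median 369) in Ctrl_RT, 132 to 228 CPM (median 196) in Ctrl_CE, 315 to 506 CPM (median 415) in MetR_RT and 159 to 308 CPM (median 229.8) in MetR_CE. Cold libraries stood below the RT libraries of the same diet without overlap, and the log2 fold change was -0.96 ± 0.15 (SE) in Ctrl_CE (adjusted p = 4.9e-06), -0.64 ± 0.14 (SE) in MetR_CE (adjusted p = 0.00051) and -0.81 ± 0.13 (SE) for MetR_CE against MetR_RT (adjusted p = 2.7e-05). Pnpla2 lay at 3102 to 3280.2 CPM (median 3215) in Ctrl_RT, 2033 to 2535 CPM (median 2308) in Ctrl_CE, 2766 to 3149 CPM (median 2982) in MetR_RT and 2428 to 2883 CPM (median 2567) in MetR_CE. Every cold Ctrl library was below every Ctrl_RT library, yet the difference was under 1.5-fold, at -0.47 ± 0.05 (SE) in Ctrl_CE (adjusted p = 2.8e-08) and -0.28 ± 0.05 (SE) in MetR_CE (adjusted p = 4.9e-05). The interaction for Pnpla2 was 0.31 ± 0.07 (SE) (adjusted p = 0.028), a smaller difference on the MetR diet.

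Over all 3 comparisons with Ctrl_RT in iBAT, the lipases after Pnpla2 and the coactivator were never called. Lipe lay between 1390 and 1846 CPM in every iBAT library and was at -0.08 in Ctrl_CE. Mgll was at 0.30 ± 0.08 (SE) in Ctrl_CE (adjusted p = 0.0055) and Abhd5 at 0.31 ± 0.08 (SE) (adjusted p = 0.0050), both under 1.5-fold. For Abhd5 every MetR_CE library, at 136 to 159 CPM (median 149.8), lay above every MetR_RT library, at 96.9 to 133 CPM (median 112).

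G0s2, the inhibitor, was the only member that the MetR diet alone moved past both thresholds in iBAT. It lay at 157 to 389 CPM (median 238) in Ctrl_RT, 186 to 424 CPM (median 258.6) in Ctrl_CE, 91.2 to 193 CPM (median 149) in MetR_RT and 105 to 432 CPM (median 217) in MetR_CE. All groups overlapped, MetR_RT was lowest, and the log2 fold change was -0.85 ± 0.25 (SE) in MetR_RT (adjusted p = 0.035) and 0.67 ± 0.24 (SE) for MetR_CE against MetR_RT (adjusted p = 0.040). With the 3 libraries grouped by their tag, both calls were lost, at -0.49 (adjusted p = 0.35) and 0.56 (adjusted p = 0.22). As a description with no test, the ratio of G0s2 to Pnpla2 CPM within a library was 0.0822 ± 0.0285 (SD, n = 6) in Ctrl_RT, 0.119 ± 0.0338 (SD, n = 6) in Ctrl_CE, 0.0498 ± 0.0141 (SD, n = 7) in MetR_RT and 0.0890 ± 0.0438 (SD, n = 7) in MetR_CE.

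Summed brown adipocyte markers in iBAT were at 9431 to 12273 CPM (median 10357) in Ctrl_RT, 16326 to 19126 CPM (median 16957) in Ctrl_CE, 11061 to 13269 CPM (median 11552) in MetR_RT and 16537 to 20009.6 CPM (median 18520.2) in MetR_CE, with 8 of 8 markers at 1 CPM or more. Their part in the cold results of iBAT was not tested. Without the 3 iBAT libraries whose summed muscle markers passed 1000 CPM, each of the 10 calls remained.

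In liver Abhd5 and Lipe were lower in MetR_RT, and Pnpla3 was higher with cold on the Ctrl diet but not on the MetR diet. MetR_RT called 2 of 10 members, both lower (6.91% of all genes), Ctrl_CE called 1, higher (11.9%), and MetR_CE called 1, lower (13.5%). MetR_CE against MetR_RT called 1 (5.19%), MetR_CE against Ctrl_CE called 1 (5.26%) and the interaction called none (1.06%), where edgeR gave 1 member an unadjusted p below 0.05 and DESeq2 called 1. The median over the 9 members other than Plin1 was 0.25 in Ctrl_CE, -0.15 in MetR_RT and 0.21 in MetR_CE on the log2 scale, beside -0.011, 0.0045 and -0.044 over all genes.

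Abhd5, whose protein activates adipose triglyceride lipase, fell in liver in MetR_RT, and in MetR_CE by a margin that the replicate block took away. It lay at 24.0 to 48.8 CPM (median 28.1) in Ctrl_RT, 24.1 to 32.8 CPM (median 27.8) in Ctrl_CE, 20.1 to 22.0 CPM (median 20.6) in MetR_RT and 19.9 to 24.1 CPM (median 21.9) in MetR_CE. In Ctrl_RT, replicates 1 and 4 stood at 48.8 and 45.6 CPM, and the next highest library at 31.7 CPM. No fit left out replicate 1 or 4, so whether Abhd5 reaches 1.5-fold without them was not tested. MetR_RT lay wholly below Ctrl_RT and MetR_CE wholly below Ctrl_CE, and the highest MetR_CE library was just above the lowest Ctrl_RT library. The log2 fold change against Ctrl_RT was -0.67 ± 0.12 (SE) in MetR_RT (adjusted p = 0.00016) and -0.60 ± 0.12 (SE) in MetR_CE (adjusted p = 0.00023), or -0.58 and under 1.5-fold with the replicate block, against -0.22 ± 0.12 (SE) in Ctrl_CE (adjusted p = 0.17). MetR_CE against Ctrl_CE was -0.38 ± 0.12 (SE) (adjusted p = 0.035), under 1.5-fold.

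Lipe, expressed in liver at a low level, was called in MetR_RT. It lay at 12.9 to 27.6 CPM (median 17.1) in Ctrl_RT, 13.8 to 24.0 CPM (median 19.6) in Ctrl_CE, 8.99 to 16.8 CPM (median 9.76) in MetR_RT and 13.2 to 16.9 CPM (median 14.7) in MetR_CE. MetR_RT was lowest, with a range that overlapped Ctrl_RT, and the log2 fold change was -0.62 ± 0.15 (SE) (adjusted p = 0.0045) in MetR_RT and -0.30 ± 0.15 (SE) (adjusted p = 0.15) in MetR_CE. Mgll, the most abundant of the lipases in liver, lay at 231 to 299.8 CPM (median 261.3) in Ctrl_RT, 317 to 429.6 CPM (median 347) in Ctrl_CE, 141 to 275.5 CPM (median 178) in MetR_RT and 256.8 to 392 CPM (median 315) in MetR_CE. Every Ctrl_CE library stood above every Ctrl_RT library and MetR_RT was lowest. Mgll differed by 0.47 ± 0.12 (SE) in Ctrl_CE and -0.47 ± 0.12 (SE) in MetR_RT (adjusted p = 0.0034 and 0.0050), both under 1.5-fold, and rose by 0.76 ± 0.12 (SE) from MetR_RT to MetR_CE (adjusted p = 3.7e-05).

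Pnpla3 was scarce in liver, with 2 to 496 counts per library. It lay at 0.276 to 9.59 CPM (median 1.99) in Ctrl_RT, 1.33 to 25.9 CPM (median 4.27) in Ctrl_CE, 0.275 to 5.38 CPM (median 2.81) in MetR_RT and 0.385 to 2.01 CPM (median 0.922) in MetR_CE. Ctrl_CE held the highest libraries but overlapped all other groups, and 1 Ctrl_RT library at 9.59 CPM stood apart from the others of its group. On the MetR diet the median was lower in the cold, with overlap, and MetR_CE against MetR_RT was not called. The log2 fold change was 2.22 ± 0.64 (SE) in Ctrl_CE (adjusted p = 0.0083), or 3.10 without that Ctrl_RT library, and -3.49 ± 0.71 (SE) for MetR_CE against Ctrl_CE (adjusted p = 0.0011). The interaction was -3.59 ± 0.98 (SE) (adjusted p = 0.052), just short of a call, and became -4.47 (adjusted p = 0.010) without that Ctrl_RT library.

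Other cell markers moved with the groups in liver too. Summed macrophage markers were at 226 to 317 CPM (median 284.4) in Ctrl_RT, 237 to 748 CPM (median 448) in Ctrl_CE, 133 to 225 CPM (median 191) in MetR_RT and 241 to 279.2 CPM (median 265.5) in MetR_CE. Clec4f, which marks the resident macrophages of liver, was at 97.3 to 136 CPM in Ctrl_RT and 51.1 to 95.0 CPM in MetR_RT, without overlap, and had a median of 160 CPM in Ctrl_CE and 94.7 CPM in MetR_CE. Summed hepatocyte markers were lowest in MetR_CE, at 53500.1 to 64229.5 CPM (median 58855) against 71206 to 101391 CPM (median 79921) in Ctrl_RT. The part of these markers in the liver results was not tested.

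Pnpla2 in liver lay at 63.9 to 88.5 CPM (median 66.6) in Ctrl_RT and 86.2 to 105 CPM (median 91.1) in MetR_CE. It differed by 0.41 ± 0.08 (SE) in MetR_CE (adjusted p = 0.00023), under 1.5-fold, and every MetR_CE library lay above every MetR_RT library. Plin2, the main perilipin of liver, lay at 331 to 560.1 CPM (median 419) in Ctrl_RT, 414 to 755 CPM (median 572) in Ctrl_CE and 225 to 472 CPM (median 308) in MetR_RT. It differed by 0.45 ± 0.15 (SE) in Ctrl_CE (adjusted p = 0.019) and by 0.57 ± 0.15 (SE) from MetR_RT to MetR_CE (adjusted p = 0.0058), both under 1.5-fold. Plin5 and G0s2 passed no p threshold in liver: Plin5 was at 0.28 ± 0.14 (SE) in Ctrl_CE, and G0s2, which ranged from 12.1 to 255.2 CPM over the libraries, was at 0.06 ± 0.46 (SE). Plin4 stood at 1.33 to 7.84 CPM in liver beside a mean of 41.2 CPM for the overlapping Hdgfl2, and reads of this pair cannot be told apart.

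In the eWAT libraries used, Plin2 was called higher and Pnpla2 lower in Ctrl_CE, and 4 members had an interaction. Ctrl_CE called 2 of 10, with 1 higher and 1 lower (2.42% of all genes), MetR_RT called none (0.115%), and MetR_CE against Ctrl_RT called 1, lower (1.3%). The interaction called 4 (2.3%), MetR_CE against Ctrl_CE called 3 (4.35%), and MetR_CE against MetR_RT called none (0.112%). In edgeR, 2 members had an unadjusted p below 0.05 in MetR_RT and 3 in MetR_CE against MetR_RT, and DESeq2 called 1 in each. The median log2 fold change over the members was -0.14 in Ctrl_CE and -0.03 in MetR_CE, beside -0.01 and -0.03 over all genes. These counts rest on 4 Ctrl_RT libraries, and with all 28 libraries the interaction called none and Ctrl_CE called 1.

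Plin2 rose with cold on the Ctrl diet in eWAT, and on the MetR diet it differed by -0.49 ± 0.26 (SE) (adjusted p = 0.43). The Ctrl_RT libraries stood at 369, 497, 254.96 and 381 CPM, and the other groups at 434 to 1186 CPM (median 743) in Ctrl_CE, 274.3 to 1169.7 CPM (median 523) in MetR_RT and 341 to 544 CPM (median 418) in MetR_CE. Ctrl_CE was highest, overlapping Ctrl_RT at its lower end. The log2 fold change in Ctrl_CE was 1.08 ± 0.30 (SE) (adjusted p = 0.039), MetR_CE against Ctrl_CE was -0.89 ± 0.25 (SE) (adjusted p = 0.021) and the interaction was -1.56 ± 0.40 (SE) (adjusted p = 0.031). With all libraries the last values were -0.87 (adjusted p = 0.073) and -1.48 (adjusted p = 0.10). The Ctrl_CE call was lost without Ctrl_RT replicate 1, 6 or 7 or Ctrl_CE replicate 5, 6 or 7 (0.93 to 1.09, adjusted p = 0.058 to 0.12), and the interaction without Ctrl_RT replicate 1, 6 or 7, MetR_RT replicate 3 or 5, Ctrl_CE replicate 7 or MetR_CE replicate 4. MetR_CE against Ctrl_CE was lost without Ctrl_CE replicate 7 (-0.78, adjusted p = 0.060).

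Pnpla3 also had a negative interaction in eWAT. Its Ctrl_RT libraries stood at 549, 711, 436 and 499 CPM, and the other groups at 665 to 1273 CPM (median 838) in Ctrl_CE, 307 to 1154 CPM (median 820.4) in MetR_RT and 205 to 590.3 CPM (median 407) in MetR_CE. Every MetR_CE library lay below every Ctrl_CE library. MetR_CE against Ctrl_CE was -1.09 ± 0.23 (SE) (adjusted p = 0.0036), a call that held in each alternative run, and the interaction was -1.56 ± 0.37 (SE) (adjusted p = 0.021), or -1.51 with all libraries (adjusted p = 0.080). The interaction was lost without Ctrl_RT replicate 1, 6 or 7 (adjusted p = 0.050 to 0.055).

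Plin4 had a positive interaction in eWAT. Its Ctrl_RT libraries stood at 3310, 3429, 2989 and 4245 CPM, and the other groups at 2089 to 2875 CPM (median 2674) in Ctrl_CE, 2304 to 4577 CPM (median 3008) in MetR_RT and 3866 to 5121 CPM (median 4539) in MetR_CE. Ctrl_CE lay wholly below Ctrl_RT and wholly below MetR_CE. Plin4 was at -0.42 ± 0.17 (SE) in Ctrl_CE (adjusted p = 0.15), MetR_CE against Ctrl_CE was 0.79 ± 0.15 (SE) (adjusted p = 0.0012), a call that held in each alternative run, and the interaction was 0.94 ± 0.23 (SE) (adjusted p = 0.023), or 0.74 with all libraries (adjusted p = 0.27). The interaction was lost without Ctrl_RT replicate 1 or 7 (adjusted p = 0.050 and 0.065).

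Among the lipases of eWAT, Pnpla2 was called and Lipe and Mgll were not. The Ctrl_RT libraries of Pnpla2 stood at 4061, 2733, 2881 and 4143 CPM, and the other groups at 1721 to 3214 CPM (median 2099) in Ctrl_CE, 1959 to 2551 CPM (median 2359) in MetR_RT and 2297 to 2928 CPM (median 2595) in MetR_CE. Ctrl_RT was highest, above every MetR_RT library and overlapping both cold groups. The 3 Ctrl_RT libraries that were left out stood at 1658, 2401 and 1620 CPM when all libraries were normalized together, below each of the 4 used. The log2 fold change was -0.59 ± 0.16 (SE) in Ctrl_CE (adjusted p = 0.034) and the interaction 0.78 ± 0.22 (SE) (adjusted p = 0.0499), against -0.27 (adjusted p = 0.39) and 0.58 (adjusted p = 0.45) with all libraries. The Ctrl_CE value was -0.57, under 1.5-fold, in DESeq2. With 1 library left out at a time, the Ctrl_CE call remained in 14 of 24 fits and the interaction in 4 of 24. The Ctrl_CE call was lost without Ctrl_RT replicate 1 or 7, Ctrl_CE replicate 1, 3, 6 or 7, MetR_RT replicate 3, 5 or 6, or MetR_CE replicate 6, and the interaction remained without Ctrl_RT replicate 3 or 6, MetR_RT replicate 1 or Ctrl_CE replicate 4. Lipe was at -0.15 in Ctrl_CE and Mgll at -0.16 (adjusted p = 0.51 and 0.69).

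Abhd5 was the member called in eWAT in MetR_CE against Ctrl_RT. Its Ctrl_RT libraries stood at 263.03, 192, 169.9 and 204 CPM and MetR_CE at 109.6 to 159 CPM (median 147). The groups did not overlap, and the log2 fold change was -0.59 ± 0.15 (SE) (adjusted p = 0.027), or -0.38 with all libraries (adjusted p = 0.086). The call was lost without Ctrl_RT replicate 1, 3 or 7, Ctrl_CE replicate 7 or MetR_CE replicate 4, 5 or 6 (-0.45 to -0.62). Every MetR_CE library of Abhd5 also lay below every Ctrl_CE library, at 176 to 241.8 CPM (median 200.3), a difference of -0.54 ± 0.13 (SE) (adjusted p = 0.0072), under 1.5-fold. Plin5 and Plin1 did not pass in eWAT, at -0.39 ± 0.24 (SE) and -0.13 ± 0.13 (SE) in Ctrl_CE, and neither did G0s2, at 0.30 ± 0.26 (SE). Ucp1, the defining gene of brown adipocytes, was at 0 to 5.65 CPM in the eWAT libraries. Summed adipocyte markers in eWAT were at 26204 to 35072 CPM (median 31575) in Ctrl_RT, 21316 to 29681 CPM (median 23383) in Ctrl_CE, 26732 to 30978 CPM (median 27124) in MetR_RT and 26767 to 34268 CPM (median 29230.1) in MetR_CE, with 8 of 8 at 1 CPM or more, and summed hepatocyte markers were at 3403 to 6794 CPM (median 4533), 258.3 to 4105 CPM (median 1107), 459 to 2065 CPM (median 868) and 512 to 1233 CPM (median 661). The hepatocyte sums were 952 to 3148 CPM in the 3 Ctrl_RT libraries that were left out, below each of the 4 used. Alb, the albumin gene, had medians of 7.88, 10.6, 19.7 and 27.5 CPM in the group order of those sums. It was thus lowest in Ctrl_RT, where the sum was highest, beside a median of 45286 CPM in the Ctrl_RT livers. Whether the sum follows hepatocytes was not tested. Summed markers of ciliated epithelium were at 6.53 to 213 CPM (median 8.20) in Ctrl_RT, 6.98 to 237 CPM (median 68.4) in Ctrl_CE, 7.02 to 44.96 CPM (median 9.81) in MetR_RT and 6.26 to 178 CPM (median 12.1) in MetR_CE, with the highest median in Ctrl_CE. The medians of Foxj1, a regulator of cilia, were 0.254, 28.3, 0.240 and 2.26 CPM in the same order, and those of Epcam, an epithelial adhesion protein, 0.490, 20.05, 1.21 and 2.12 CPM. The part of these markers in the eWAT results was not tested.

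**Figure D5:**
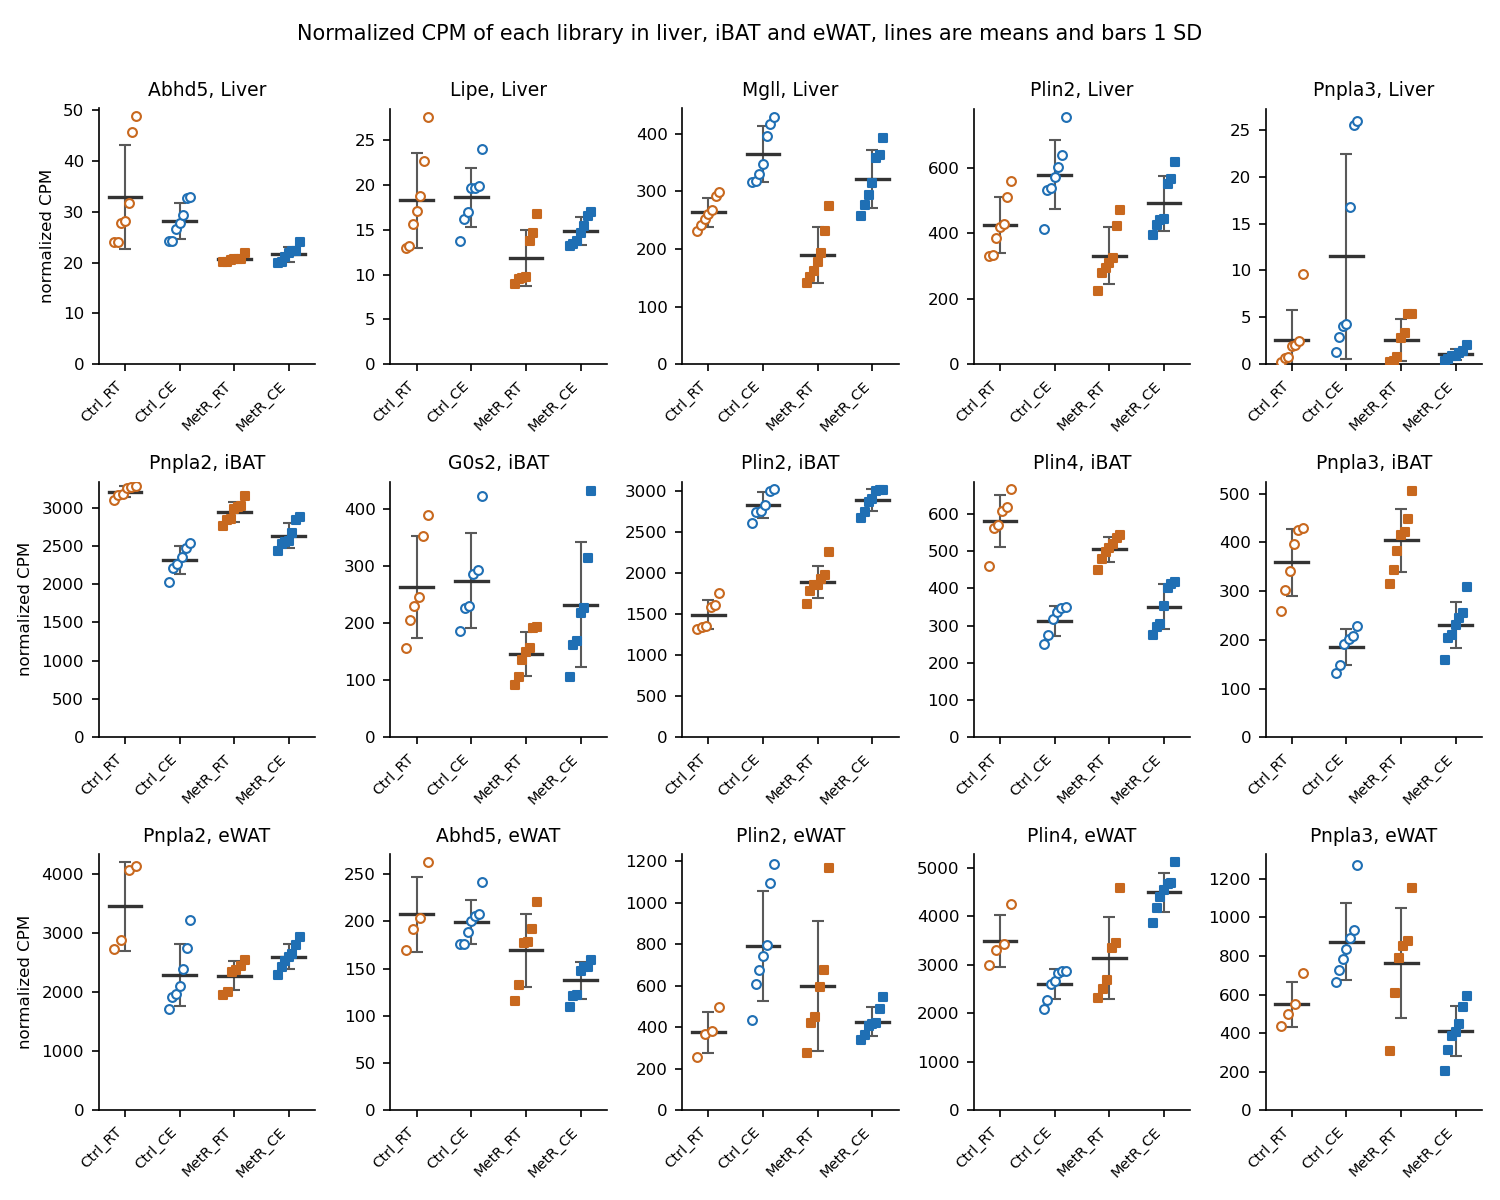
Normalized CPM of the members with calls in liver, iBAT and eWAT, 1 point per library in the 4 groups, with the mean as a line and a bar of 1 SD. Plin2 in liver and Pnpla2 in iBAT are also drawn, and neither had a call. Abhd5 is lower in both MetR groups of liver, Plin2 is higher and Plin4 and Pnpla3 lower in both cold groups of iBAT, and in eWAT Plin2 and Pnpla3 are highest and Plin4 lowest in Ctrl_CE.

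The cold and diet responses of several members differed between tissues in the joint edgeR fit, which tests the difference of the log2 fold changes. For Ctrl_CE, 4 of 10 members differed between iBAT and iWAT (8.15% of all genes), 3 between eWAT and iWAT (4.18%) and 3 between liver and iWAT (11.8%). For MetR_RT the counts were 1 (3.67%), 3 (3.52%) and 5 (7.22%) in the same order. Plin5 was the member that differed in all 6. Its Ctrl_CE response minus that of iWAT was -1.54 ± 0.30 (SE) in iBAT, -2.28 ± 0.31 (SE) in eWAT and -1.58 ± 0.29 (SE) in liver (adjusted p = 5.5e-05, 1.0e-06 and 8.4e-06). Its MetR_RT response differed by -1.64, -1.96 and -1.63 (adjusted p = 6.7e-05, 3.1e-05 and 9.5e-06).

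Pnpla2 and Pnpla3 also parted between the depots. The Ctrl_CE response of Pnpla2 was -0.78 ± 0.16 (SE) in iBAT minus iWAT (adjusted p = 0.00021) and -0.89 ± 0.17 (SE) in eWAT minus iWAT (adjusted p = 0.00023), the latter -0.57 and under 1.5-fold with all libraries. That of Pnpla3 was -1.65 ± 0.48 (SE) in iBAT minus iWAT (adjusted p = 0.012), and cold lowered it in iBAT and raised it in iWAT. Plin4 differed between iBAT and iWAT by -0.96 ± 0.31 (SE) in Ctrl_CE (adjusted p = 0.022). For Mgll, eWAT minus iWAT was -0.73 in Ctrl_CE and -0.82 in MetR_RT (adjusted p = 0.0052 and 0.0021), the former -0.44 (adjusted p = 0.13) with all libraries. Pnpla2 in MetR_RT was at -0.84 in eWAT minus iWAT (adjusted p = 0.00070).

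Between liver and iWAT, the MetR_RT responses of Lipe, Mgll, Abhd5, Plin2 and Plin5 differed, and those of Pnpla2 and Pnpla3 were not called. In MetR_RT, liver minus iWAT was -1.05 ± 0.15 (SE) for Lipe, -0.97 ± 0.17 (SE) for Mgll, -0.64 ± 0.16 (SE) for Abhd5 and -1.11 ± 0.25 (SE) for Plin2 (adjusted p = 1.0e-07, 6.5e-06, 0.0027 and 0.00062). With limma and the mouse as a block, the calls of Lipe and Abhd5 were lost (adjusted p = 0.094 and 0.061). In Ctrl_CE, Plin2 differed by -0.77 ± 0.25 (SE) (adjusted p = 0.017) and Pnpla3 by 1.59 ± 0.52 (SE) (adjusted p = 0.019), the latter at an adjusted p of 0.44 in limma.

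Genes that act around the members moved as follows. A list of 29 genes of lipolysis signalling (receptors, adenylyl cyclases, phosphodiesterases and kinases) had 6 higher and 4 lower genes in iWAT under Ctrl_CE, where 15.9% of all genes were called. There were 8 higher and 3 lower under MetR_RT (11.6% of all genes) and 12 higher and 3 lower under MetR_CE (22.4%), and the median log2 fold changes were 0.26, 0.25 and 0.44. Adcy3, an adenylyl cyclase, rose by 2.00, 1.31 and 2.43 in these comparisons, and Adrb1, a beta-adrenergic receptor, by 1.54, 1.03 and 1.59. Adcy5, another adenylyl cyclase, was at -1.51 in Ctrl_CE and -1.08 in MetR_RT. In eWAT the list had 0 higher and 7 lower in Ctrl_CE (2.42% of all genes), among them Hcar1 and Hcar2, receptors whose activation restrains lipolysis, at -1.73 and -1.18. In iBAT the list had 6 higher and 6 lower in Ctrl_CE (14.7%), with Hcar1 at -2.38, Hcar2 at -2.50 and Npr3, a clearance receptor for natriuretic peptides, at 2.57. In liver it had 8 higher and 1 lower in Ctrl_CE (11.9%), and the 1 that fell was Adrb3, at -0.96.

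Genes that rebuild triglyceride were called higher in iWAT. Of 18 genes of triglyceride synthesis and re-esterification, 11 were higher in Ctrl_CE, 8 in MetR_RT and 12 in MetR_CE and 0 were lower, beside 5.99%, 4.25% and 8.05% of all genes called higher, with median log2 fold changes of 0.75, 0.59 and 0.78. Gk, glycerol kinase, rose by 3.53, 2.48 and 3.83, and Gpd1, which makes glycerol 3-phosphate, by 1.63, 1.40 and 1.51. In iBAT 8 were higher and 1 lower in Ctrl_CE (14.7% of all genes), with Gk at 1.92 and Dgat2, which adds the last fatty acid, at -1.20. In liver 6 were higher and 0 lower in Ctrl_CE (11.9%), with the phosphatidate phosphatases Lpin1 and Lpin2 at 1.35 and 1.41.

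Of 19 other lipid droplet proteins, 4 were higher and 0 lower in iWAT in Ctrl_CE and again in MetR_CE, led by Cidea, a droplet fusion protein of brown adipocytes, at 1.45 and 1.99. Over all genes 15.9% and 22.4% were called in these comparisons in either direction and 5.99% and 8.05% higher. In iBAT 2 were higher and 0 lower in Ctrl_CE, beside 14.7% of all genes called. Of 18 other neutral lipid hydrolases, 17 were tested in iWAT, where 5 were higher and 1 lower in Ctrl_CE (15.9% of all genes), and 15 in iBAT, where 5 were higher and 3 lower (14.7%). Lipoprotein lipase, Lpl, rose by 1.28 in iBAT in Ctrl_CE and was at -1.46 in liver in MetR_CE.

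The genes whose pattern was most like that of each member were found over the 16 means of tissue and group, each centred on its tissue, among 10911 genes at a mean of 1 CPM or more in every tissue. These correlations describe 16 points that share libraries and carry no test. For Plin5 the nearest were Tmem109 (r = 0.962), Pdk4 (0.956) and Slc25a20 (0.948), of which Pdk4 inhibits the pyruvate dehydrogenase complex and Slc25a20 carries acylcarnitines into mitochondria. For Pnpla3 the nearest was Scd1 (0.946), a fatty acid desaturase, and for Plin2 Slc27a4 (0.960), a fatty acid transport protein. Mgll stood nearest to Miga2 (0.949) and Crat (0.920), Pnpla2 to Adipor2 (0.913), Lipe to Ajuba (0.908), Abhd5 to Scp2 (0.897), Plin4 to Prdm9 (0.964) and G0s2 to Pop1 (0.835). Plin1 was left out because it did not reach 1 CPM in liver.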

How the data were processed

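mRNA was sequenced by the authors from poly(A) libraries without strand information (2x50 bp). The authors' processing notes name STAR 2.7.9a, featureCounts 2.0.3 and Salmon 1.9.0 with mm10, and the deposited tables hold whole-number counts per gene, without normalization. All 110 libraries were mapped by name, 0 columns were left unused, and 105 were used. The study gives how many libraries it excluded per group but not which. These 5 were inferred as the set whose mean normalized counts lay nearest to the authors' supplementary means: the median deviation was 0.151% in eWAT (0.724% for the next of 246 sets) and 0.247% in iBAT (1.12% for the next of 8). All libraries were an alternative. Symbols came from GENCODE M21, in which 51948 of 56884 identifiers matched without version number.

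Genes with at least 10 counts per tissue were tested with edgeR 4.0.16 in R 4.3.3 (TMM, quasi-likelihood, diet, temperature and interaction, Benjamini-Hochberg adjustment). A call needed an adjusted p below 0.05 and 1.5-fold. Differences between tissues were tested in a joint edgeR fit over all 4 tissues, without a term for the mouse. Levels are TMM-normalized CPM. Alternatives were RLE factors, other filters, compared groups only, a replicate block, DESeq2 1.42.0, limma 3.58.1 and left-out libraries. Simulated counts had 200 genes changed 2-fold in Ctrl_CE, drawn from those above a count floor, with the trended spread in place of each gene's own. Of these 200, 97.5% were called in liver (21735 genes fitted), 94.5% in iBAT (23409), 82% in iWAT (25899) and 64.5% in eWAT (27192). In the joint fit, with 200 such genes changed 2-fold in Ctrl_CE of iBAT alone, 68% were called between iBAT and iWAT (31613 genes fitted).

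All 10 members were named, together with at most 3 genes of each list and comparison with the largest change among those called at a mean of 1 CPM or more, and the 3 nearest genes by correlation. Members, gene lists and alternatives were chosen with earlier results of these data known. The fold changes and p-values in the authors' supplementary tables were not used. The replicate numbers did not pair the libraries.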

Additional observations from a re-analysis of the deposited data

Results flagged for a closer look

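A few libraries stood apart from the others of their group for 1 member, with a gap to the nearest library above the 95% critical value of Dixon's test. This was so in 9 of the 160 sets of 1 member, tissue and group, and chance alone gives about 1 in 20. In liver they were Pnpla3 in Ctrl_RT replicate 5 at 9.59 CPM, Abhd5 in MetR_RT replicate 6 at 22.0 CPM, G0s2 in MetR_CE replicate 1 at 255.2 CPM and Plin5 in Ctrl_RT replicate 1 at 75.1 CPM. Plin1, which was close to absent from liver, had 3 such libraries, at 0.285 CPM in Ctrl_CE replicate 3, 0.526 CPM in MetR_RT replicate 2 and 1.16 CPM in MetR_CE replicate 4. In iWAT they were Pnpla3 in MetR_RT replicate 3 at 941 CPM and Plin2 in Ctrl_RT replicate 5 at 1137 CPM.

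The effect of cold differed between the diets, by the interaction term of the edgeR fit, for 6 members and tissues. In iWAT it was -1.05 for Pnpla3 and -0.87 for Plin2 on the log2 scale. In eWAT it was 0.78 for Pnpla2, -1.56 for Pnpla3, -1.56 for Plin2 and 0.94 for Plin4. None of these 4 eWAT interactions was called with all deposited libraries, and that of Pnpla2 remained in 4 of 24 fits with 1 library left out.

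The response differed between tissues, by the joint edgeR fit, for the following members, each given as the other tissue minus iWAT on the log2 scale. For iBAT in Ctrl_CE these were Pnpla2 at -0.78, Pnpla3 at -1.65, Plin4 at -0.96 and Plin5 at -1.54, and in MetR_RT Plin5 at -1.64. For eWAT in Ctrl_CE they were Pnpla2 at -0.89, Mgll at -0.73 and Plin5 at -2.28, and in MetR_RT Pnpla2 at -0.84, Mgll at -0.82 and Plin5 at -1.96. For liver in Ctrl_CE they were Pnpla3 at 1.59, Plin2 at -0.77 and Plin5 at -1.58. For liver in MetR_RT they were Lipe at -1.05, Mgll at -0.97, Abhd5 at -0.64, Plin2 at -1.11 and Plin5 at -1.63.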

How the results depend on the processing

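No log2 fold change changed sign past a threshold. Calls held in every alternative run for 5 of 6 in liver, 7 of 10 in iBAT, 11 of 14 in iWAT, 2 of 10 in eWAT and 18 of 23 between tissues. These shares are not comparable between tissues. Each eWAT call met 24 fits with 1 library left out, against 1 in liver, 2 in iWAT and 0 in iBAT. Of single log2 fold changes, 1970 of 2024 kept their side of the thresholds under other settings and 1558 of 1620 with 1 library left out. The cause of the changes below was not tested.

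The number of members called moved by more than 1.5 times as follows. In liver, MetR_CE against Ctrl_RT called 0 with the replicate block, and the interaction called 1 without a filter, with filterByExpr, with DESeq2 and without Ctrl_RT replicate 5. In iBAT, grouping by the treatment tag gave 0 in MetR_RT and 1 for MetR_CE against MetR_RT. In iWAT, Ctrl_CE called 5 with RLE factors, the replicate block and DESeq2, and the interaction called 1 without a filter, without the libraries rich in muscle markers and without MetR_RT replicate 3. MetR_CE against Ctrl_CE in iWAT called 1 with filterByExpr, the replicate block, compared groups only, DESeq2 and without Ctrl_RT replicate 5. In eWAT, Ctrl_CE called 1 with RLE factors, no filter, filterByExpr, DESeq2 and all deposited libraries, 0 with compared groups only, and 0 to 2 with 1 library left out. MetR_RT in eWAT called 1 with DESeq2. MetR_CE against Ctrl_RT called 0 without a filter and with the replicate block, and 0 to 1 with 1 library left out. The eWAT interaction called 0 with all deposited libraries and 0 to 4 with 1 library left out, and MetR_CE against MetR_RT called 1 with DESeq2 and 0 to 2 with 1 library left out. Smaller moves were 3 to 2 for MetR_CE against MetR_RT in iBAT without the libraries with conflicting tags, 2 to 3 for the iWAT interaction with DESeq2, 3 to 4 for Ctrl_CE in iWAT with compared groups only, without the libraries rich in muscle markers and without MetR_RT replicate 3, and 7 to 5 for MetR_CE against Ctrl_RT in iWAT without the libraries rich in muscle markers. In eWAT the interaction also went from 4 to 3 with RLE factors, no filter, the replicate block and without the libraries rich in epididymal markers, and MetR_CE against Ctrl_CE from 3 to 2 with all deposited libraries. Between tissues, limma gave 2 for iBAT and iWAT in MetR_RT and 3 for liver and iWAT in MetR_RT, and all deposited libraries gave 1 for eWAT and iWAT in Ctrl_CE.

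Libraries with the same replicate number deviated together only in part, with correlations from -0.075 to 0.105 in liver, -0.264 to 0.251 in iBAT, -0.176 to 0.344 in iWAT and -0.372 to 0.521 in eWAT, so the numbers were not taken as pairing. With the replicate block, calls went from 6 to 5 in liver, 10 to 10 in iBAT, 14 to 17 in iWAT and 10 to 8 in eWAT. Leaving out each library in turn was run in eWAT, and in liver and iWAT for single libraries that stood apart, which were chosen after seeing the data, as were the fits without marker-rich libraries.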
